A study of Homo sapiens with 12 samples.

Results

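RNA levels after cariporide were compared with those without the drug in MDA-MB-231 cells kept at 5 mM glucose. The comparison used 6 of the 12 libraries of the series: 3 with 25 µM cariporide (LGCAR 1 to 3) and 3 with no drug (LG 1 to 3), both after 48 h. Its genes were all symbols that passed a filter on low counts, 15104 of the 40929 in the deposited tables. MDA-MB-231 is an established human line of triple-negative breast cancer, a type that lacks the oestrogen and progesterone receptors and HER2 amplification. All groups were wild type cells of this line, grown in RPMI with 10% fetal bovine serum and no antibiotics. The other 6 libraries were the same cells at 10 mM glucose, 3 without drug (NG) and 3 with 25 µM cariporide (CAR), and serve here as the drug comparison at the higher glucose level. The series asked how glucose restriction and cariporide, alone and together, alter gene expression in this cancer type. A single line was used, and the labels do not say whether the groups without drug received the drug's solvent.

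Cariporide is an inhibitor of sodium-proton exchange at the plasma membrane, a process that removes acid from the cytoplasm in exchange for sodium and is known for its part in the alkaline interior and acid surroundings of tumour cells. The best known transcriptional sensor of glucose in such cells is MondoA (MLXIP), which with its partner MLX enters the nucleus when glucose 6-phosphate accumulates and switches on TXNIP and ARRDC4. Both targets encode alpha-arrestins that limit glucose uptake, so their RNA is widely read as a gauge of glucose metabolism. MDA-MB-231 cells are also known to express NF-kB targets and cytokines without stimulation.

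The libraries held 18069004 to 23991233 counts, and the LGCAR libraries (18069004 to 20464308) were smaller than the LG libraries (21093396 to 23991233). Markers fitted the label of the line in part. VIM lay between 1666 and 1864 CPM (counts scaled to the library's total and between libraries by TMM). The raw counts of CD44, EGFR, CAV1 and AXL were at least 7086 in each of the 6 libraries. ESR1 had 0 to 4 counts, and PGR and KRT5 were at 0 in all 6 libraries. KRT8 and KRT18 had 7846 to 10956 and 6018 to 8625 counts, and ERBB2, the gene of HER2, 1047 to 1453. GATA3, EPCAM and CDH1, listed as low or absent, had 185 to 318, 222 to 317 and 35 to 44 counts and passed the filter. Of 12 immune markers 6 were at 0 in all 6 libraries (among them CD3E, CD3D, MS4A1, NKG7 and HBB) and 3 were tested. The summed level of the immune list was 72.1 to 78.8 CPM in LG and 63.9 to 66.9 in LGCAR, most of it from CD68, a gene with 81.7% of its exon bases in common with another on the same strand. Of 13 fibroblast and endothelial markers 7 were tested, and their summed level was 35.1 to 38.6 CPM in LG and 35.9 to 38 in LGCAR. Cytosolic ribosomal RNA took 10.2% ± 1.12 of the counts in LGCAR against 8.65% ± 0.649 in LG (SD over 3 libraries), without overlap. LG 3 stood further from LG 1 than any other pair within the 2 groups, the chi-square over genes, divided by its degrees of freedom, being 16.4 against 2.98 to 9.66 for the other 5 pairs. No pair was within sampling noise, so each library was counted as 1 replicate. Whether the 3 libraries of a group are separate cultures is not stated in the labels, and the p-values measure only the spread between these libraries, which may be technical.

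One gene passed the test. TXNIP rose with cariporide at 5 mM glucose, and no other gene of the 15104 was called in either direction at an adjusted p under 0.05 (0.00662% called). Without adjustment 1801 genes (11.9%) had a p under 0.05, 955 of them higher and 846 lower in LGCAR. With a library left out that count ran from 735 (without LG 3) to 2796 (without LG 1). With the ribosomal RNA share of each library as a covariate it was 654. TXNIP encodes thioredoxin-interacting protein, which also binds and inhibits thioredoxin. Its level was 40.6, 50 and 48.6 CPM in LG 1 to 3 and 84.3, 79.9 and 94.6 CPM in LGCAR 1 to 3. All 3 libraries with cariporide stood well above all 3 without it, and the group means were 46.4 ± 5.07 and 86.2 ± 7.55 CPM (SD, n = 3). The mean with cariporide was 186% of that without, a log2 fold change of 0.90 with a standard error of 0.0766, a 95% interval of 0.73 to 1.06 and an adjusted p of 4.60e-05 (quasi-likelihood test of edgeR, adjusted after Benjamini and Hochberg). The call was kept in every alternative fit, with log2 fold changes between 0.81 and 0.95. In bulk RNA, a change in every cell and a change in the share of cells that express the gene cannot be told apart.

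At 10 mM glucose TXNIP was far higher and did not follow the drug. The levels were 255, 259 and 278 CPM in NG 1 to 3 and 263, 249 and 245 CPM in CAR 1 to 3, so these groups overlapped, and both lay above every library at 5 mM. The log2 difference between CAR and NG was -0.06, with an adjusted p of 0.895 in edgeR. No gene was called in CAR against NG (0% of 15104) by edgeR or by limma-voom, while 684 had an unadjusted p under 0.05 in edgeR and DESeq2 called 2. The response to the drug at 5 mM minus that at 10 mM, the interaction of cariporide with glucose, was 0.96 on the log2 scale for TXNIP, with an adjusted p of 0.00138. TXNIP was again the only gene called (0.00662%). With the ribosomal RNA share of each library as a covariate the interaction was 1.0 with an adjusted p of 0.0595, so that call was lost, and the covariate's part in the difference was not tested further. All 3 LGCAR libraries lay above LG and below NG, and the LGCAR libraries enter both of these readings.

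**Figure D1:**
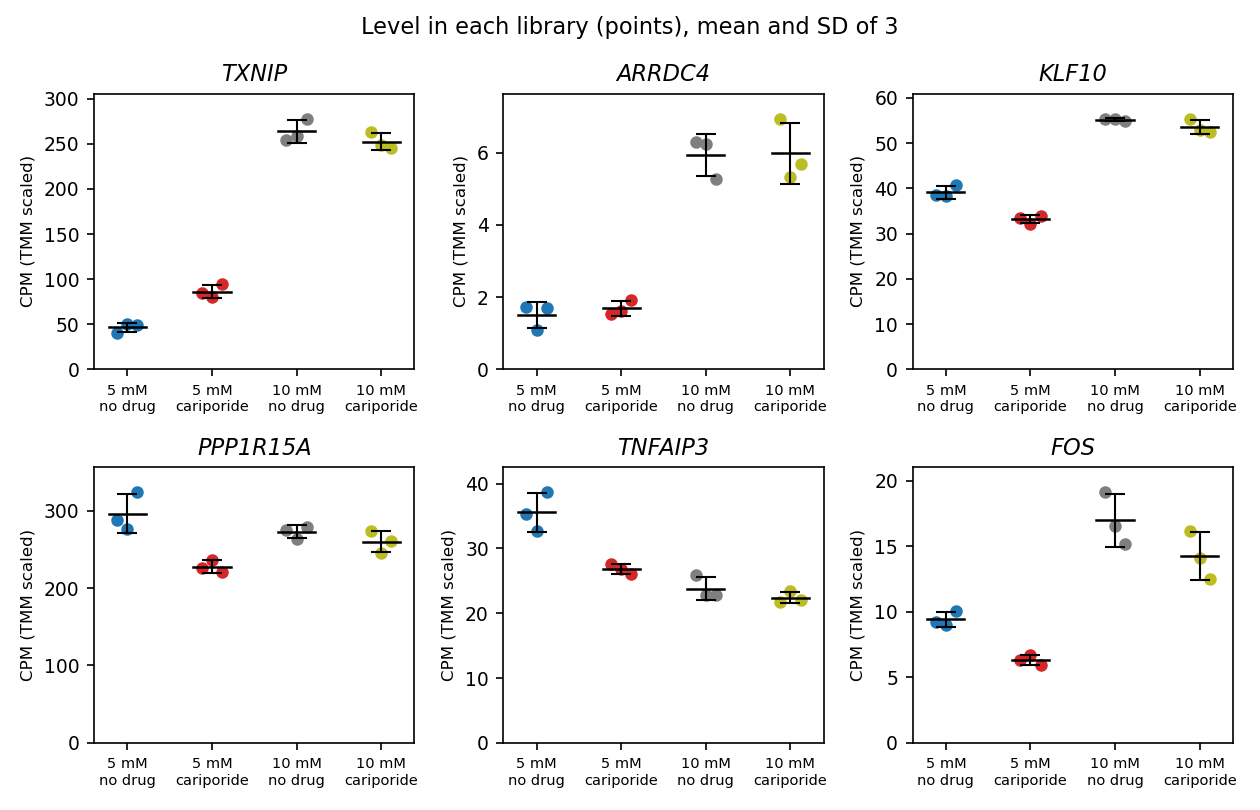
Level of 6 genes in each library, in CPM scaled by TMM, for the 4 groups named on the horizontal axis. Points are libraries, and bars give the mean and SD of 3. TXNIP with cariporide at 5 mM glucose (79.9 to 94.6 CPM) lies above the libraries without drug (40.6 to 50 CPM) and below all libraries at 10 mM, while ARRDC4 shows no such step, and KLF10, PPP1R15A, TNFAIP3 and FOS lie lower with cariporide at 5 mM without passing the test.

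TXNIP lies at chr1:145992435-145996579 on GRCh38.p14, and ARRDC4, which encodes a second alpha-arrestin under the control of MondoA, at chr15:97960703-97973833. The 250 bases before the RefSeq start of each are shown, since MondoA is known to act on both genes. Whether the ARRDC4 window holds a site through which glucose acts was not tested. TXNIP is read from the minus strand at chr1:145996580-145996829 and ARRDC4 from the plus strand at chr15:97960453-97960702, both 5′ to 3′ in the direction of the gene. Capitals mark CACGAG, the hexamer of the TXNIP carbohydrate response element, CACGTG, the E-box, and CCAAT boxes, which read ATTGG on the other strand.
TXNIP: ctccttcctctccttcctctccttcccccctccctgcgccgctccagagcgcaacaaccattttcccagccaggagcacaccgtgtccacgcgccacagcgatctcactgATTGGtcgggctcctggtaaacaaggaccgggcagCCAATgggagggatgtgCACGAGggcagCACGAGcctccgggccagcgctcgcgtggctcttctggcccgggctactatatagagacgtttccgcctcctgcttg
ARRDC4: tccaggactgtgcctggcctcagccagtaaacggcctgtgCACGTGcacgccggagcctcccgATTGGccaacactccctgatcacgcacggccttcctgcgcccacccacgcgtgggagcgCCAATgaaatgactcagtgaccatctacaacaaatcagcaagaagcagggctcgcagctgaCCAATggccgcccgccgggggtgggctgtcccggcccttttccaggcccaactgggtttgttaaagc
In TXNIP 2 copies of CACGAG stand in one direction, 5 bases apart, from 88 to 83 and from 77 to 72 bases before the start, with CCAAT boxes at 140 to 136 and 105 to 101 bases. ARRDC4 holds 1 CACGTG at 210 to 205 bases before the start and CCAAT boxes at 187 to 183, 128 to 124 and 67 to 63 bases. The search for paired CACGAG was chosen after the TXNIP sequence was seen. Among 11630 tested genes with a promoter in the RefSeq table, TXNIP and KCTD5, a subunit of a ubiquitin ligase, were the 2 (0.0172%) with the pair at that spacing. KCTD5 had a log2 fold change of -0.05 with an adjusted p of 0.765. Such matches describe these windows and show no binding.

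The rest of the glucose-sensing list was not called, ARRDC4 included. ARRDC4 was low at 5 mM glucose, with 1.72, 1.09 and 1.70 CPM in LG 1 to 3 and 1.52, 1.63 and 1.91 CPM in LGCAR 1 to 3. The groups overlapped, and the log2 fold change of 0.17 had an interval of -0.27 to 0.62 (adjusted p 0.737), which lies below the TXNIP value of 0.90. At 10 mM the mean was 5.94 CPM in NG and 5.99 CPM in CAR. KLF10, a Krüppel-like repressor that MondoA and ChREBP also induce, went in the opposite direction to TXNIP, with 38.5, 38.2 and 40.7 CPM in LG and 33.5, 32.1 and 33.8 CPM in LGCAR. Those groups did not overlap, and the log2 difference of -0.24 had an adjusted p of 0.282 in edgeR. MLXIP and MLX, the sensor and its partner, had log2 differences of 0.17 and -0.13 with adjusted p-values of 0.458 and 0.464. Of 13 tested members 1 was called, and the median of the list was 0.0026 against -0.0014 over all tested genes.

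**Figure D2:**
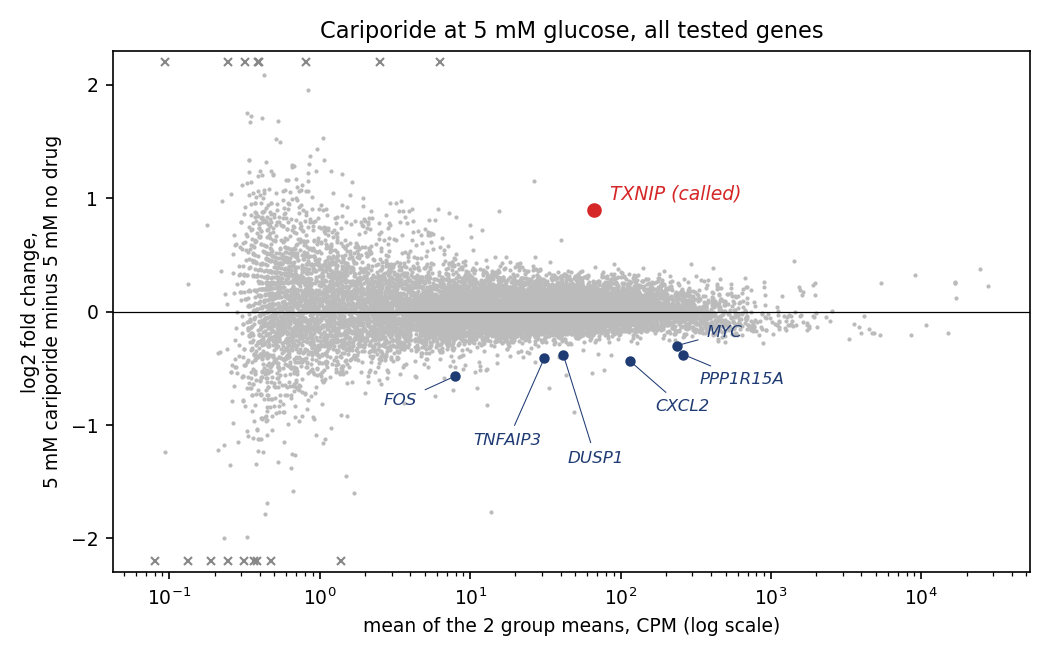
Log2 fold change of LGCAR against LG for each of the 15104 tested genes, against the mean of the 2 group means in CPM on a log axis; crosses at the edge are genes beyond the axis. TXNIP, at 0.90, is the called gene, and the genes named in dark blue were not called.

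The transport system on which the drug acts showed no called gene. Among 15 tested genes of sodium-proton exchangers and their partners none passed the test. All 3 LGCAR libraries were above all 3 LG libraries in 3 of these genes and below them in 1, beside 10.9% and 10.5% of all tested genes. SLC9A7, an exchanger of the trans-Golgi network, had the smallest p of the list, with 83.6, 74.9 and 60.1 CPM in LG and 90.6, 89.8 and 91.2 CPM in LGCAR (log2 fold change 0.31, adjusted p 0.401). The LG libraries varied more than the step between the groups. CHP1, the calcineurin B homologous cofactor of plasma membrane exchangers, had a log2 fold change of 0.21 with an adjusted p of 0.431. SLC9A5, an exchanger best known from the brain, lay at 4.98, 4.05 and 3.86 CPM in LG and 3.49, 3.76 and 3.14 CPM in LGCAR (log2 -0.31, adjusted p 0.419). The scaffold and linker genes EZR, MSN and RDX had differences of -0.04, 0.01 and 0.00.

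Other acid-base and ion transporters were likewise uncalled in all 35 tested cases. SLC12A2, the sodium-potassium-chloride cotransporter NKCC1, and SLC4A7, a sodium-bicarbonate cotransporter that brings base into the cell, had log2 differences of 0.37 and 0.20 with adjusted p-values of 0.405 and 0.375. CA9, the hypoxia-induced carbonic anhydrase of the cell surface, had 8.99, 10.1 and 10.5 CPM in LG and 6.88, 8.14 and 7.50 CPM in LGCAR, a log2 difference of -0.39 with an adjusted p of 0.344. A gene on the opposite strand covers 38.5% of its exon length, and the sources used here do not tell whether the counting was by strand. SLC12A2 and SLC4A7 were named after their values were seen, as were KLF10, SLC9A5, CHP1 and the other genes here that do not have the smallest p of a list.

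With so few calls, the groups were also described by whether they overlap. A gene is said here to lie lower without overlap when all 3 LGCAR libraries were below all 3 LG libraries, and higher without overlap in the reverse case. Over all tested genes 1639 were higher (10.9%) and 1584 lower (10.5%) without overlap, with a median log2 fold change of -0.0014. Scaled by library totals alone these counts were 1156 and 2139, so the balance between the directions rests on the scaling. At 10 mM glucose 671 genes were higher (4.44%) and 705 lower (4.67%) in CAR than in NG. The median unadjusted interval extended 0.19 to either side of the log2 fold change. Differences of -0.38 in PPP1R15A and -0.57 in FOS were not called in the edgeR fit reported.

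The 5 genes with the smallest p after TXNIP were all lower with cariporide without passing the test, and PPP1R15A, TNFAIP3, MYC and FOS among them are rapidly induced regulators. PPP1R15A encodes GADD34, the phosphatase subunit that reverses eIF2alpha phosphorylation and so restores translation after stress. Its level was 288, 276 and 324 CPM in LG 1 to 3 and 225, 237 and 221 CPM in LGCAR 1 to 3. The groups did not overlap, and the log2 difference of -0.38 (interval -0.51 to -0.25) had an adjusted p of 0.0722 in edgeR, just outside the threshold. TNFAIP3 encodes A20, the NF-kB-induced brake on NF-kB signalling. It had 35.4, 32.7 and 38.7 CPM in LG and 27.6, 26.8 and 26.0 CPM in LGCAR, also without overlap (log2 -0.41, adjusted p 0.144). C4B, a complement component, had 13.1, 13.2 and 15.0 CPM in LG and 6.98, 9.66 and 9.26 CPM in LGCAR (log2 -0.68, adjusted p 0.188). C4A, its near-identical copy, had a difference of 0.16 (adjusted p 0.721), so how the counting divided shared reads makes the C4B value uncertain.

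The calls of these genes, among others, depended on the processing. DESeq2 called 20 genes, 5 of them higher, and edgeR without the filter on low counts called 15, 4 of them higher. PPP1R15A, C4B, TNFAIP3, DUSP1, MYC, FOS and TMEFF1 were called lower in both, with adjusted p-values for PPP1R15A of 4.61e-05 and 5.15e-05. When a trend of each library on exon length was removed, edgeR called 5 genes: TXNIP higher (log2 0.94), and PPP1R15A (-0.33, adjusted p 0.00479), TNFAIP3 (-0.40, 0.0473), CXCL1 (-0.43, 0.0493) and C4B (-0.71, 0.0498) lower. Limma-voom called TXNIP alone. Without LG 2 the calls were 3, TXNIP, PPP1R15A and CHTF8, the last with an adjusted p of 7.86e-04 against 0.398 with LG 2 included.

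NF-kB targets, chemokines and cytokines lay lower with cariporide at 5 mM as a group. Of 28 tested members 17 were lower and 0 were higher without overlap, against 10.5% and 10.9% of all tested genes, and the median log2 fold change was -0.20. The edgeR fit reported called none of them. Without the filter on low counts edgeR called TNFAIP3 lower (adjusted p 0.00102), and with the exon length trend removed TNFAIP3 and CXCL1. DESeq2 called TNFAIP3, CXCL1, CXCL2 and CSF2 lower, with adjusted p-values of 0.00393, 0.00393, 0.00393 and 0.0271. CXCL2, CXCL1 and CXCL8, chemokines that draw neutrophils, had log2 differences of -0.44, -0.51 and -0.27 with adjusted p-values of 0.282, 0.294 and 0.338 in edgeR. CXCL2 had 123, 122 and 156 CPM in LG and 103, 104 and 88.1 CPM in LGCAR. CSF2, the growth factor GM-CSF, had 67.0, 69.6 and 94.0 CPM in LG and 50.6, 61.6 and 46.0 CPM in LGCAR (log2 -0.54, adjusted p 0.351). NFKBIA, the inhibitor IkB-alpha that NF-kB itself induces, had 123, 119 and 144 CPM in LG and 107, 108 and 106 CPM in LGCAR. In these 3 genes the groups did not overlap and LG 3 was the highest library. Leaving out the highest LG library cannot create overlap, so overlap without LG 3 is no check on its part. IL6 differed by -0.25 (adjusted p 0.338), while the NF-kB subunits RELA, NFKB1 and RELB had differences of -0.09, 0.03 and -0.09.

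Immediate-early genes and the feedback genes of the ERK pathway showed the same kind of count. Of 26 tested members 14 were lower and 2 higher without overlap, against 10.5% and 10.9% of all tested genes. The median was -0.13, and LG 3 was the highest LG library in 18 of the 26, against 40.3% of all tested genes. MYC, the growth-promoting transcription factor, had the smallest p, with 254, 244 and 290.5 CPM in LG and 223, 209.7 and 208 CPM in LGCAR (log2 -0.30, adjusted p 0.282). FOS, a subunit of AP-1, had 9.20, 9.0 and 10.1 CPM in LG and 6.34, 6.74 and 5.96 CPM in LGCAR (log2 -0.57, adjusted p 0.282). In both genes all LGCAR libraries were below all LG libraries. DUSP1, a phosphatase that switches off MAP kinases, differed by -0.38 (adjusted p 0.282). The 2 members that were higher without overlap were SPRED1, a RAS inhibitor (log2 0.19, adjusted p 0.397), and ETV5, a transcription factor downstream of ERK (0.08, adjusted p 0.521).

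EGR1, a growth-factor-induced zinc finger factor, had opposite differences at the 2 glucose levels. It had 58.0, 50.4 and 82.4 CPM in LG and 37.8, 33.2 and 32.0 CPM in LGCAR, without overlap. At 10 mM it had 47.3, 50.4 and 57.0 CPM in NG and 89.9, 77.5 and 60.8 CPM in CAR, without overlap in the other direction. The log2 differences were -0.89 and 0.56, and the interaction was -1.45 with an unadjusted p of 5.05e-04 and an adjusted p of 0.911 in edgeR, so the reversal did not pass the test across genes. DESeq2 called the difference at 5 mM (adjusted p 0.0168). LG 3 was the highest LG library.

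**Figure D3:**
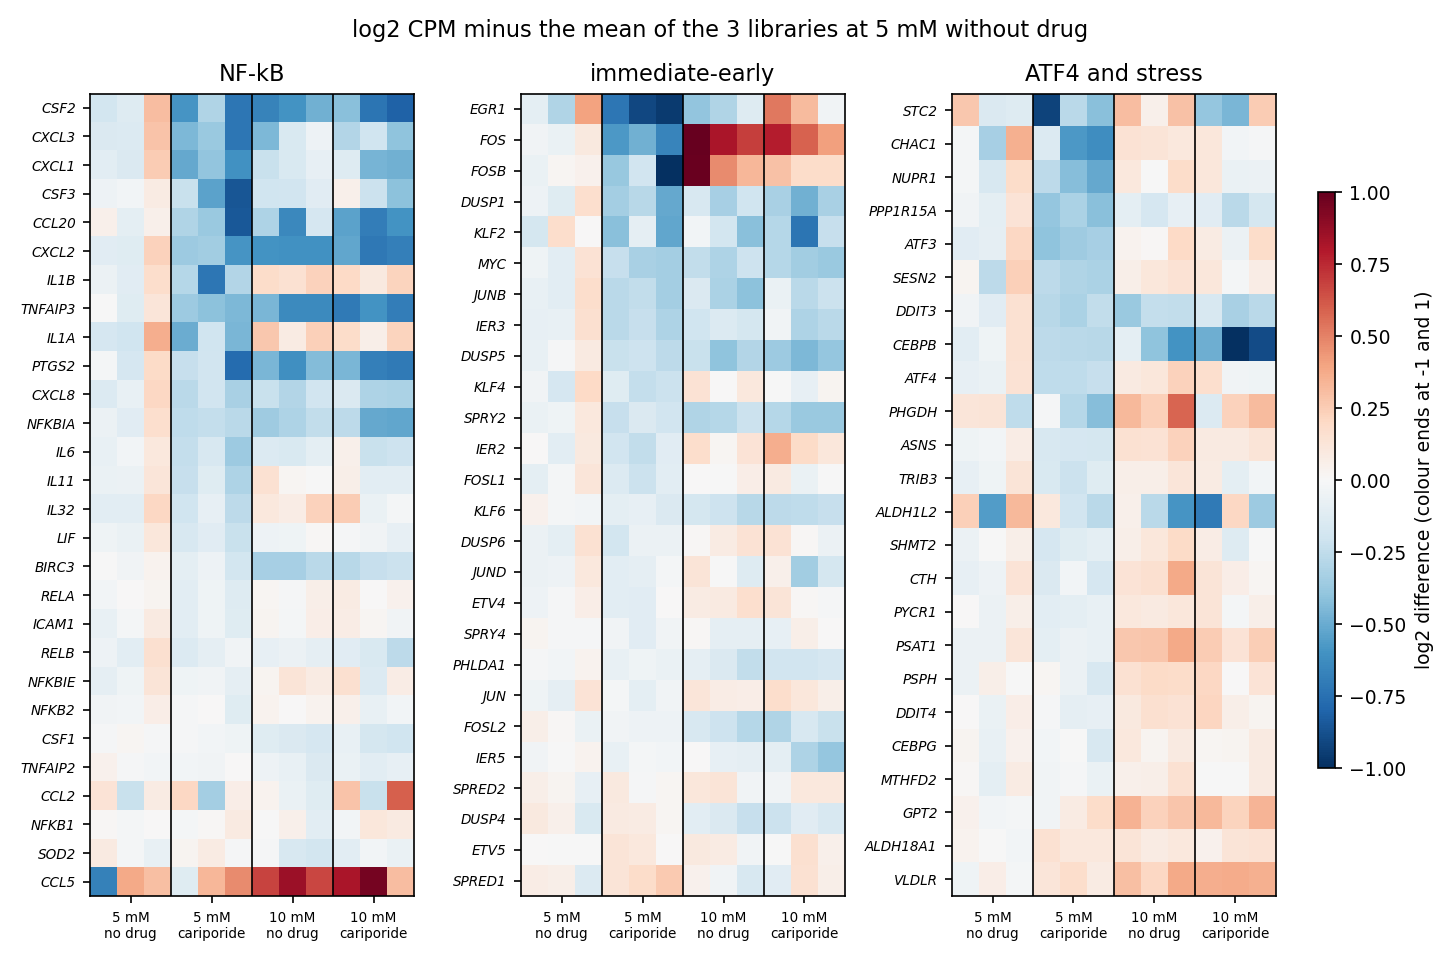
Log2 CPM of each tested member of 3 gene lists in each of the 12 libraries, minus the mean of LG 1 to 3; rows are genes in order of the log2 fold change at 5 mM, columns are libraries in groups of 3 from replicate 1 to 3, and colours end at -1 and 1. Most upper rows are blue with cariporide at 5 mM in all 3 libraries, and LG 3 is redder than LG 1 and LG 2 in 22 of the 28 NF-kB members.

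The integrated stress response list had 11 members lower and 2 higher without overlap of 24 tested, with a median of -0.16. Over all tested genes 10.5% were lower and 10.9% higher. LG 3 was the highest LG library in 18 of the 24, against 40.3% of all tested genes. ATF4, the transcription factor at its centre, had 235, 237 and 275 CPM in LG and 208, 208 and 212 CPM in LGCAR (log2 -0.25, adjusted p 0.303). Its targets ATF3 and DDIT3, which encode stress factors of the same family, had log2 differences of -0.37 and -0.29, both with an adjusted p of 0.294, and ASNS, asparagine synthetase, of -0.17 (adjusted p 0.320). Without the filter on low counts edgeR called ATF3 lower (adjusted p 0.0318), and likewise PPP1R15A, also a member of this list. A gene on the opposite strand covers 31.6% of the exon length of DDIT3, and one on the same strand 44.6% of that of ASNS. Of 20 tested synthetases 9 were lower and 0 higher without overlap, against the same 10.5% and 10.9%, and LG 3 was the highest LG library in 15. SARS1, the seryl-tRNA synthetase, had the smallest p of them, with 239, 239 and 262 CPM in LG and 216, 216 and 213 CPM in LGCAR (log2 -0.20, adjusted p 0.311). SLC3A2, the heavy chain of amino acid exchangers and a target of ATF4, differed by -0.17 (adjusted p 0.346).

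Chaperones of the endoplasmic reticulum also lay on the lower side. Of 26 tested genes of the unfolded protein response 12 were lower and 1 higher without overlap, against 10.5% and 10.9% of all tested genes. The median was -0.09, and LG 3 was the highest LG library in 18 of the 26, against 40.3% of all tested genes. HSPA5, the chief chaperone BiP, had 4034, 4025 and 4125 CPM in LG and 3689, 3731 and 3682 CPM in LGCAR, a small but non-overlapping log2 difference of -0.13 (adjusted p 0.391). CRELD2, a secreted factor induced by such stress and the smallest p of the list, had 17.3, 17.2 and 19 CPM in LG and 14.9, 14.8 and 14.5 CPM in LGCAR (log2 -0.28, adjusted p 0.311). At 10 mM its difference was -0.28 as well, from 19.7 to 16.2 CPM in the group means, which was not called. XBP1, a transcription factor of the response, differed by -0.24 at 5 mM (adjusted p 0.345).

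Ribosomal protein genes gave the highest share of any list. All 47 tested genes of cytosolic ribosomal proteins had a log2 fold change below 0, from -0.24 for RPL35 to -0.04 for RPS12. Of these 41 were lower without overlap, against 10.5% of all tested genes, and the median was -0.15. RPL13 had the smallest p, with 565, 594 and 673 CPM in LG and 523, 532 and 531 CPM in LGCAR (log2 -0.21, adjusted p 0.368). LG 3 was the highest LG library in 46 of the 47 genes, against 40.3% of all tested genes. Without LG 3 the median was -0.09. The count lower without overlap was then 41, beside 13.7% of all tested genes, but leaving out a library can hardly lower such a count. With the ribosomal RNA share as a covariate it was -0.05.

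The mRNAs of the mitochondrial genome lay on both sides of 0. Of 13 tested 12 had a log2 fold change below 0, 7 of them without overlap (10.5% of all tested genes), and the median was -0.19. LG 3 was the highest LG library in 12 of the 13, and without it the median was -0.11. In that setting 7 were lower without overlap, against 13.7% of all tested genes, but leaving out a library can hardly lower such a count. CYTB, a subunit of respiratory complex III, had 3285, 3512 and 3933 CPM in LG and 3069, 3069 and 2929 CPM in LGCAR (log2 -0.24, adjusted p 0.345). ND6, the one mRNA transcribed from the light strand, had 184, 159 and 156 CPM in LG and 203, 183 and 172 CPM in LGCAR, with overlap (0.16, adjusted p 0.409). The mitochondrial 12S ribosomal RNA RNR1 had 8507, 8093 and 7775 CPM in LG and 9213, 10681 and 10580 CPM in LGCAR, also on the higher side (0.32, adjusted p 0.294). Together these mRNAs took 5.19% ± 0.283 of the counts in LGCAR against 5.997% ± 0.589 in LG, and the mitochondrial ribosomal RNAs 3.95% ± 0.116 against 3.38% ± 0.138 (SD over 3 libraries), so within the mitochondrial transcripts the balance differed. At 10 mM the list's median was 0.07, and the RNR1 difference was -0.37. The interaction for RNR1 was 0.69 with an adjusted p of 0.152, the second smallest after TXNIP. The share of cytosolic ribosomal RNA had the same directions, 10.2% in LGCAR against 8.65% in LG and 7.87% in CAR against 9.48% in NG. Its part in the RNR1 differences was not tested further. With the ribosomal RNA share as a covariate the median of the mRNAs was -0.05, and the part of that share in the result was not tested further.

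Fewer lists lay on the higher side. Among phospholipid flippases and PI3 kinase genes 11 of 27 tested were higher and 0 lower without overlap, against 10.9% and 10.5% of all tested genes. Their median was 0.10. ATP8A1, a flippase that moves phosphatidylserine to the inner leaflet, had 4.73, 4.87 and 4.43 CPM in LG and 6.29, 6.35 and 5.80 CPM in LGCAR (log2 0.39, adjusted p 0.353). INSR and IGF1R, the receptors for insulin and IGF-1, had log2 differences of 0.25 and 0.30 with adjusted p-values of 0.356 and 0.398. LG 3 was the lowest LG library in 24 of the 27 genes, against 39.4% of all tested genes, and the median without it was 0.06. Of 39 tested genes of DNA replication 8 were higher and 0 lower without overlap, against the same 10.9% and 10.5%, with a median of 0.06. MCM10, which helps to assemble the replication fork, had 29.3, 26.8 and 24.3 CPM in LG and 31.6, 29.7 and 32.0 CPM in LGCAR (log2 0.21, adjusted p 0.354). Among mitosis genes 2 were higher and 4 lower of 32, near the background, and CDC25C, the phosphatase that activates CDK1, had a log2 difference of -0.20 (adjusted p 0.370).

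**Figure D4:**
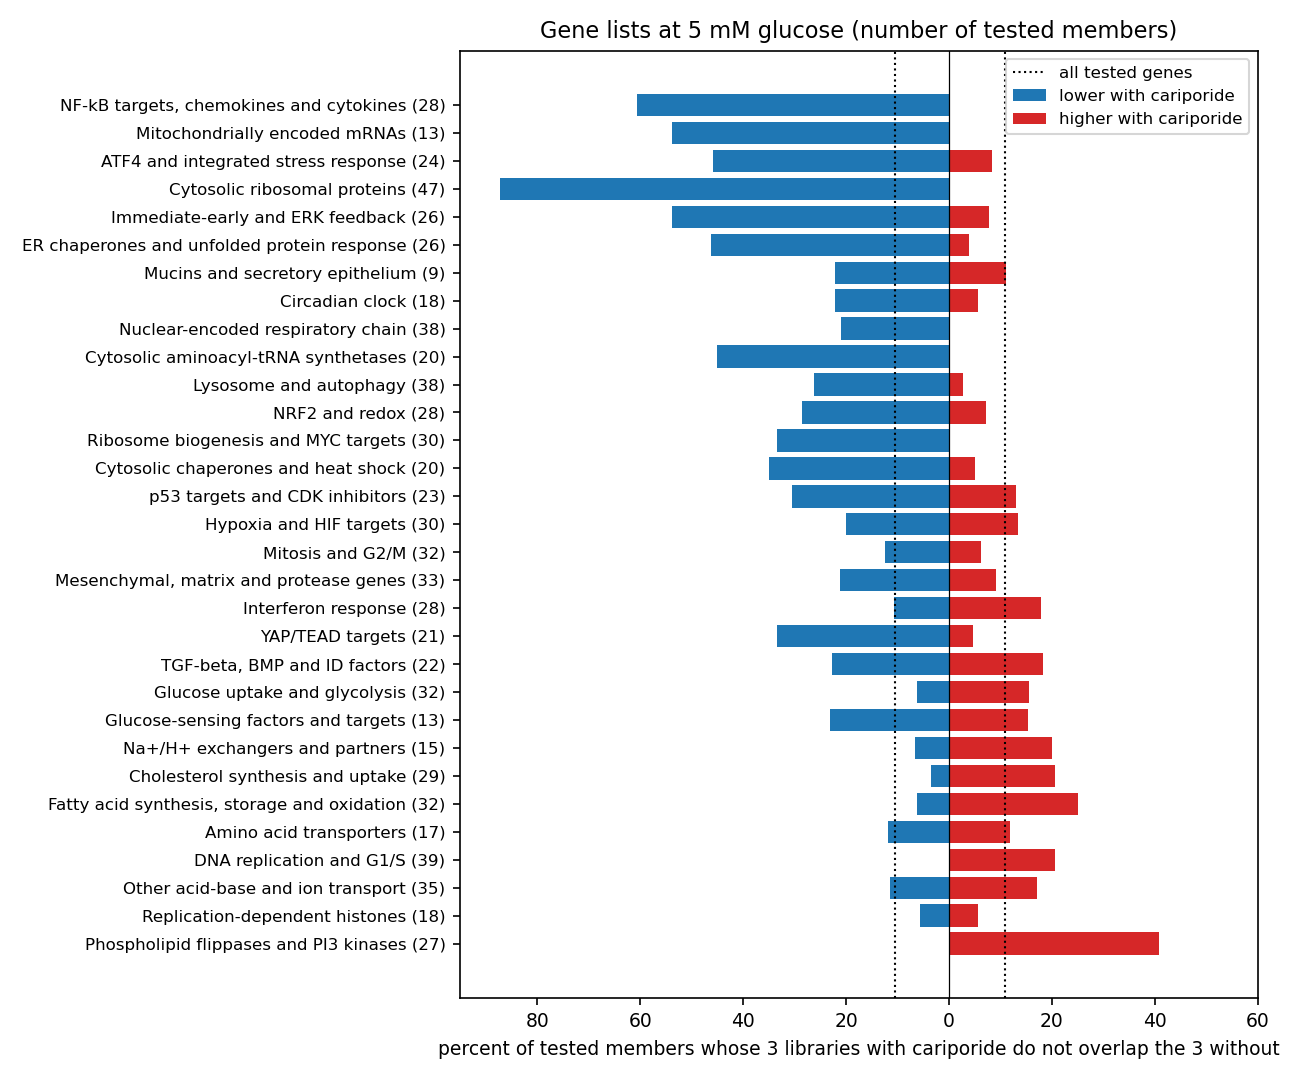
Percent of the tested members of each gene list that were lower (left, blue) or higher (right, red) with cariporide at 5 mM glucose without overlap between the 3 libraries of each group. The number of tested members stands in brackets, and dotted lines mark all tested genes, 10.5% lower and 10.9% higher. Ribosomal proteins (41 of 47) and NF-kB targets (17 of 28) extend furthest to the left, and flippases and PI3 kinases (11 of 27) furthest to the right.

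In the remaining lists edgeR called no member with the filter on low counts, and the member with the smallest p gives the scale. DESeq2 called PLK2 and GADD45A lower (adjusted p-values 0.0434 and 0.0493), and also H2AC19 (adjusted p 3.42e-04), which had 8.35 CPM in LG 2 and 0 in the other 5 libraries at 5 mM. EdgeR without the filter on low counts called SNAI2 lower (adjusted p 0.0378). Differences below 0 without overlap included PLK2, a p53-induced kinase (-0.22, adjusted p 0.291), INHBA, the activin A subunit (-0.27, adjusted p 0.294), SNAI2, the mesenchymal factor Slug (-0.29, adjusted p 0.282), and CCN2, a YAP target secreted into the matrix (-0.18, adjusted p 0.339). NFIL3, a repressor in the circadian circuit, PLIN2, which coats lipid droplets, MCOLN1, a lysosomal calcium channel, and GAR1, a nucleolar RNA-binding protein, had -0.23, -0.19, -0.21 and -0.17, with adjusted p-values of 0.339, 0.345, 0.345 and 0.345. The mucin MUC5B, at 3.73 to 6.61 CPM, had -0.49 (adjusted p 0.356), cytochrome c (CYCS) -0.15 (adjusted p 0.397), mitochondrial thioredoxin (TXN2) -0.17 (adjusted p 0.404) and ACTA2, smooth muscle actin, at 1.74 to 3.05 CPM, -0.49 (adjusted p 0.390). On the higher side without overlap were PFKFB4, which makes and removes an activator of glycolysis (0.22, adjusted p 0.359), the chaperone HSPA4L (0.25, adjusted p 0.357) and the sterol sensor SCAP (0.15, adjusted p 0.383). The interferon-induced OAS2 (0.21, adjusted p 0.369) and the histone gene H2BC21 (0.28, adjusted p 0.397) lay on that side too. Without overlap, 5 glycolysis genes were higher and 2 lower of 32 (median -0.01), and 4 hypoxia targets were higher and 6 lower of 30, beside 10.9% and 10.5% of all tested genes.

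The differences followed the merged exon length of the genes. This length joins the exons of all annotated transcripts of a gene and can exceed that of any single mRNA. Genes averaging 5 CPM or more were placed in 5 equal classes by merged exon length in GENCODE 29, which 10713 of 10937 had. The median log2 fold change of LGCAR against LG was -0.08 in the class of the shortest genes (median 2280 bases) and 0.09 in that of the longest (10924 bases), with values between for the classes between. Of the shortest genes 23.1% were lower and 1.73% higher without overlap, and of the longest 4.25% were lower and 23.4% higher. At 10 mM the medians ran from -0.05 to 0.06. LG 3 ran the other way against LG 1 and LG 2, from 0.13 in the shortest to -0.15 in the longest, and without LG 3 the range at 5 mM was -0.04 to 0.04. The median exon length was 2853 bases in the NF-kB list, 3573 in the immediate-early list, 3527 in ribosomal proteins and 9196 in flippases and PI3 kinases.

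**Figure D5:**
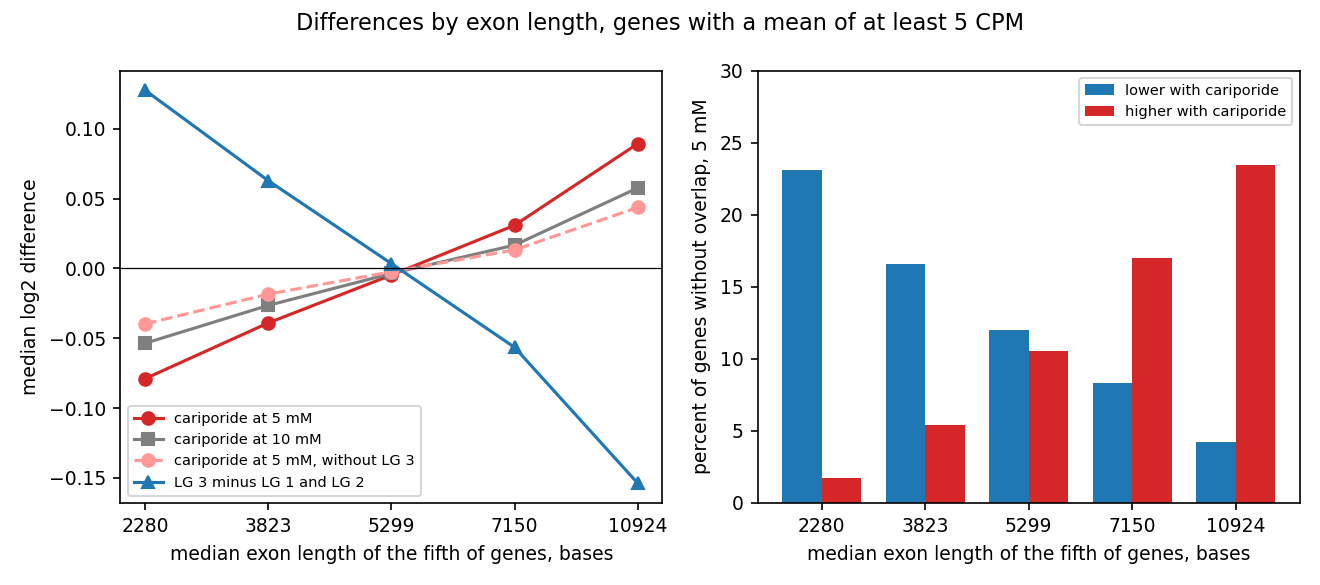
Left, median log2 difference in 5 equal classes of genes by exon length, for cariporide at 5 mM (red, and pale red without LG 3), cariporide at 10 mM (grey) and LG 3 against the mean of LG 1 and LG 2 (blue); classes are evenly spaced and labelled with their median length in bases. Right, percent of genes in each class that were lower (blue) or higher (red) at 5 mM without overlap, from 23.1% lower in the shortest class to 23.4% higher in the longest.

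With the exon length trend removed from each library, the list counts were as follows. NF-kB targets had 17 of 28 lower without overlap and a median of -0.15, immediate-early genes 14 of 26 and -0.12, the ATF4 list 10 of 24 and -0.14, the unfolded protein response 12 of 26 and -0.05, and ribosomal proteins 36 of 47 and -0.11. Flippases and PI3 kinases had 10 of 27 higher with a median of 0.06, and replication genes 12 of 39, against 8 before, with 0.06. Over all 13669 genes with a length 10.7% were lower and 9.83% higher in that case. Leaving out LG 3 instead gave 18 NF-kB targets, 15 immediate-early genes, 12 of the ATF4 list and 13 of the unfolded protein response lower, against 13.7% of all genes. Leaving out a library can hardly lower such counts, so they are no check on LG 3. The medians without it were -0.13, -0.095, -0.10 and -0.07. Medians with the ribosomal RNA share as a covariate were -0.14, -0.12, -0.12 and -0.06. What sets the trend with length was not tested.

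The drug comparison at 10 mM shares no library with that at 5 mM. It went the same way for many of the genes that differed at 5 mM, with smaller medians. Exceptions in size among the named genes included MUC5B (-0.70 at 10 mM) and PLIN2 (-0.20), both also lower there without overlap. H2BC21 had -0.42 at 10 mM, opposite to its difference at 5 mM and without overlap. Of the 1584 genes lower without overlap at 5 mM, 1224 (77.3%) had a log2 difference below 0 in CAR against NG, compared with 49.5% of all tested genes, and their median there was -0.05 against -0.15 at 5 mM. Of the 1639 genes higher without overlap 367 (22.4%) were below 0 at 10 mM, with a median of 0.06 against 0.20. Exon length moved with both comparisons in the same direction, and its part in this likeness was not tested. By list, where 4.67% of all tested genes were lower and 4.44% higher without overlap at 10 mM, NF-kB targets had 1 of 28 lower and a median of -0.02, immediate-early genes 2 lower and 1 higher of 26, the ATF4 list 3 lower of 24, and ribosomal proteins 0 of 47 with a median of -0.08. In edgeR no gene apart from TXNIP passed the interaction test, while DESeq2 called 5 genes and edgeR without the filter 2. TMEFF1, a transmembrane protein of which 75.9% of the exon length is shared with a gene on the same strand, had the next smallest interaction p after RNR1 (-2.16, adjusted p 0.676), at 1.96 to 2.59 CPM in LG and 0.638 to 1.08 CPM in LGCAR.

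Promoter motifs were counted in the 250 bases before the start as a description, on both strands. The AP-1 site TGACTCA was in 3.27% of the 1253 promoters of genes lower without overlap, in 1.39% of the 1221 of genes higher and in 2.85% of all 11630. The cyclic AMP response element TGACGTCA was in 3.35%, 2.05% and 2.80%, and the C/EBP-ATF element TTGCATCA in 0.559%, 0.0819% and 0.404%, which are 7, 1 and 47 promoters. CACGTG was in 10.3%, 9.34% and 8.67%, CCAAT in 37.3%, 33.1% and 34.8%, and CACGAG in 8.38%, 6.55% and 7.19%. Each share was somewhat larger in the lower genes than in all genes, and that of CACGTG was larger in the higher genes as well. No difference between these shares was tested. Symbols that are locus numbers alone, mostly uncharacterised transcripts, were 15.9% higher and 2.97% lower without overlap among 1043 tested, against 10.7% and 11.5% of named protein-coding genes. At 10 mM the shares were 9.01% and 2.88%, against 3.69% and 4.93%. The classes differ in level, with a median in LG of 0.95 CPM for locus numbers and 26.8 CPM for named protein-coding genes.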

How the data were processed

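Per the labels' protocols, Trizol was used for extraction of the total RNA and a directional NEBNext Ultra II kit for the libraries. The deposited values were raw counts per gene symbol, 1 table for each of the 12 libraries. GATK, STAR, fastp and Salmon are named, with GRCh38, in the submitters' processing notes. Their roles and versions and the use of strand in counting are not stated there. The sequence reads were not used here.

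Genes were tested if they passed filterByExpr with the 4 groups. Robust quasi-likelihood tests of edgeR 4.0.16 (R 4.3.3) with TMM scaling were fitted to all 12 libraries, with the contrasts LGCAR minus LG, CAR minus NG and their difference. P-values were adjusted over all 15104 tested genes after Benjamini and Hochberg, with 0.05 as the limit for a call. The tests were tested on simulated data.

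The genes, the 34 lists and the tests were chosen with earlier results of these data known. The rule for names took TXNIP, up to 10 called genes in each direction, up to 3 called members of a list or else its member with the smallest p, and the 3 genes with the smallest interaction p. Some genes it names are not reported here. Alternatives were RLE and library-total scaling, 2 other filters, DESeq2 1.42.0, limma-voom (limma 3.58.1), fits to the compared groups alone, the replicate number as a block, ribosomal RNA genes left out, their share as a covariate, and each library left out. Counts without overlap and the removal of an exon length trend (a lowess offset per library) were chosen after seeing the data. Exon lengths and overlaps came from GENCODE 29, positions and promoters from RefSeq on GRCh38.p14, where 14940 tested symbols were found. Python 3.11.15 and matplotlib 3.10.9 drew the figures.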

Additional observations from a re-analysis of the deposited data

Results flagged for a closer look

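TXNIP differed in its response to cariporide between the glucose levels, by the interaction test. The log2 response at 5 mM minus that at 10 mM was 0.96, and it moved from 0.90 at 5 mM to -0.06 at 10 mM, with 3 of 3 LGCAR libraries above all LG libraries and overlapping groups at 10 mM. Groups of 3 libraries were not screened for single outlying values.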

How the results depend on the processing

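Depth and 3 libraries per group limit the precision: the unadjusted 95% interval of a typical gene reached 0.19 to either side on the log2 scale. Differences of -0.38 (PPP1R15A) to -0.57 (FOS) were not called in the edgeR fit reported. Without the filter on low counts edgeR called both, and it called PPP1R15A also with the exon length trend removed and without LG 2. TXNIP was called in every alternative. Genes called in LGCAR against LG, 1 in the fit reported, were 15 with no filter, 20 with DESeq2, 5 with the exon length trend removed and 1 to 3 with a library left out (3 without LG 2). In CAR against NG the 0 calls became 2 with DESeq2 and 0 to 2 with a library left out (2 without NG 1, 1 without NG 2). In the interaction the count was 2 with no filter, 5 with DESeq2, 0 with the ribosomal RNA share as a covariate, when TXNIP had 1.0 (adjusted p 0.0595), and 1 to 3 with a library left out (2 without NG 1, 3 without NG 2). Fewer libraries make overlap rarer: genes without overlap were 2054 to 3085 higher and 2075 to 2963 lower with a library left out. Under the other settings these counts kept within 1.5 times.

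Replicate numbers did not pair the libraries: deviations of same-numbered LG and LGCAR libraries correlated at 0.0770, 0.0752 and -0.00436. With the replicate number as a block TXNIP alone was called (0.90, adjusted p 3.83e-04).

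Of 591 alternative values for 35 named genes 580 kept their side of the threshold, 11 passed it and 0 changed direction. Of 577 list medians 62 moved by more than the spread between libraries, and 20 of 34 lists kept 1 sign throughout. Counts of list members moved by 1.5 times or more for the ATF4 list (17 of 24 without LG 2), flippases and PI3 kinases (17 without LG 1, 6 with library totals), replication genes (13 without LG 1, 13 without LGCAR 1, 12 with the length trend removed), mitochondrial mRNAs (11 without LGCAR 1) and the unfolded protein response (18 without LGCAR 2).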
